A study of Danio rerio with 8 samples.

Results

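Nkx2.5 marks a mixed progenitor field in the zebrafish embryo: second heart field (SHF) progenitors, which add late-differentiating cells to the ventricle and to the outflow tract (OFT), differentiated cardiomyocytes, and pharyngeal progenitors that build the arch arteries. Hdac1 is a class I histone deacetylase that removes acetyl groups from histone tails, mostly as the catalytic subunit of corepressor complexes. In zebrafish, hdac1 is known for roles in neural crest, pigment cell, retinal and cardiac development. The comparison described here is between Hdac1-depleted and WT nkx2.5:ZsYellow+ cells, across all genes measured well enough and in both directions.

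The cells came from embryos of the AB/TU strain carrying a transgene in which nkx2.5 regulatory sequence drives the yellow fluorescent protein ZsYellow. They were collected at 28 hours post-fertilization (hpf) by fluorescence-activated cell sorting, keeping cells that were bright for the reporter and negative for a dye that labels dead cells. Hdac1 was depleted with a translation-blocking hdac1 morpholino (MO) injected at the one-cell stage, and a p53 MO was included in all injections. Whether the WT controls were injected is not given in the sources used here. The same table holds a WT control and a Cyp26-deficient library of sorted cells at the same age, from embryos in which MOs against cyp26a1 and cyp26c1 were used, and these served as 2 further reference libraries. Whole embryos at 48 hpf, crg mutants (an hdac1 loss-of-function allele) and their WT control, gave a separate pair in which Hdac1 was lost through another route.

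Each condition was 1 library, so no difference had a replicate check and no p-value is given. The deposited gene counts of the WT and Hdac1-depleted libraries summed to 19338815 and 18607338, and those of the other WT and the Cyp26-deficient library to 13133598 and 14349764. Values are normalized counts, that is, counts divided by a size factor for each library. The table holds 31172 genes, and 20033 of them averaged 10 or more normalized counts across the 4 sorted libraries and were compared. A gene is called raised or lowered when it differed by more than 2-fold between the Hdac1-depleted and the WT library (log2 of the normalized count plus 1). Intervals are exact 95% counting intervals of the ratio. They cover counting error only, and amplified reads are not independent molecules, so the true error is larger.

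The labels were checked as far as the values allow. A translation-blocking MO leaves its target RNA in place, so hdac1 RNA does not test the depletion: it went from 12004 in WT to 27452 in Hdac1-depleted cells, against 12138 and 14836 in the other WT and the Cyp26-deficient library (log2 fold change 1.19, interval 1.16 to 1.22; ENSDARG00000015427, chromosome 19, 31054097 to 31064046; all positions are in Zv9). In whole embryos hdac1 went from 4237 in WT to 1727 in crg mutants. The reporter's gene nkx2.5 was measured at 973, 788, 516 and 1208 normalized counts in the WT, Hdac1-depleted, other WT and Cyp26-deficient libraries. Cardiac genes were present in all 4, with myl7, a cardiac myosin light chain, at 5997, 5699.7, 4005 and 2732 in the same order. Keratin, fast skeletal muscle myosin, lysozyme and globin genes, which mark other cell types, were measured in all 4 as well. These libraries are bulk samples, so fewer cells of a type and less RNA per cell cannot be told apart.

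Of the 20033 genes, 2481 were raised and 2547 lowered, that is, 12.4% and 12.7%. Counts of list members against the matched WT are to be read beside these shares. The middle 50% of the genes lay between -0.52 and 0.53 on the log2 scale, with a median of -0.01. More than 4-fold changes numbered 565 up and 780 down. Counting error alone left 1304 raised (6.51%) and 1182 lowered (5.90%) genes with an interval wholly past 2-fold. Low counts carried many of the calls. Among genes with a mean of 10 to 30, 18.5% were raised and 26.6% lowered, against 3.31% and 2.27% of the 1057 genes with a mean of 3000 or more.

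The second WT library gives the only measure of how far such calls depend on the control. Of the 2481 raised genes, 1568 (63.2%) were also more than 2-fold higher than in the other WT library, and of the 2547 lowered genes 1813 (71.2%) were also more than 2-fold lower. Another 154 raised and 228 lowered genes showed no difference or the opposite one against that library. Both comparisons share the Hdac1-depleted library. The value against the other WT control is therefore given below for many of the genes and lists. List counts against both WT libraries are to be read beside these 1568 raised and 1813 lowered of the 20033 genes compared. Against the other WT library alone, 15.6% of all genes compared were raised and 14.9% lowered.

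**Figure D1:**
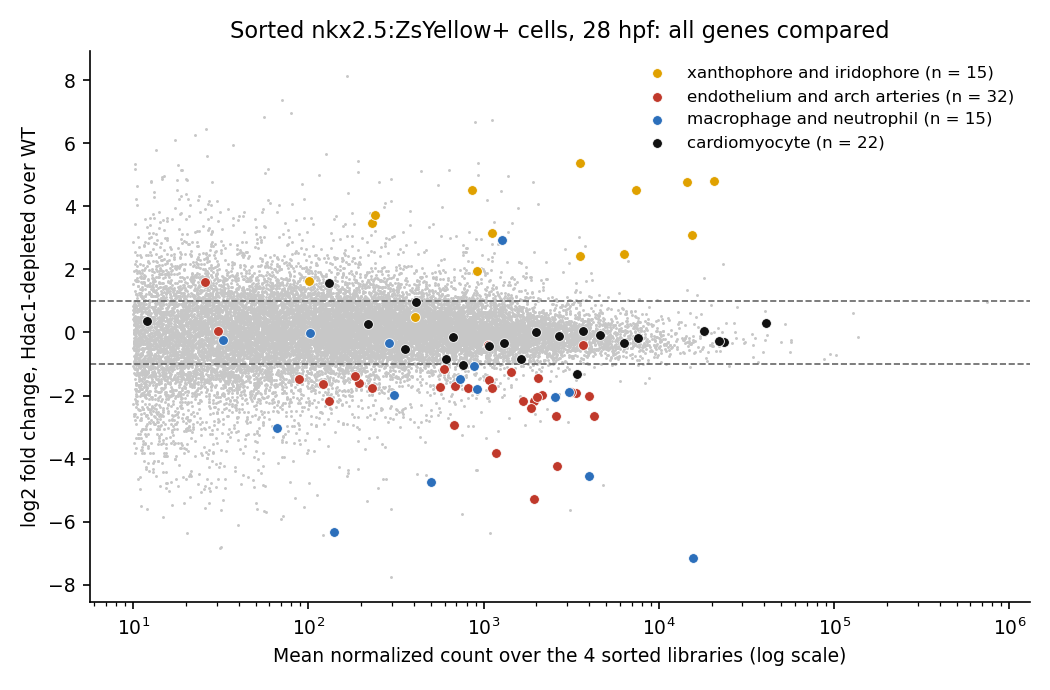
Log2 fold change of Hdac1-depleted over WT sorted cells (y axis) against the mean normalized count over the 4 sorted libraries (x axis, log scale), for the 20033 genes compared (grey points), with dashed lines at 2-fold. Xanthophore and iridophore genes (yellow) sit at the top with a median of 3.16, endothelial (red) and macrophage and neutrophil genes (blue) mostly below the lower line, and cardiomyocyte genes (black) near 0.

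Genes that pigment cells use were raised, with the highest list medians of all. Zebrafish have 3 embryonic pigment cell types, all from the neural crest: black melanophores, yellow xanthophores and reflective iridophores. Xanthophores make pteridines, which are yellow and fluorescent, from GTP, and iridophores stack crystals of the purine guanine. Of 15 xanthophore and iridophore genes compared, 14 were raised and none lowered, with a median log2 fold change of 3.16 beside -0.01 over all genes. The same 14 were raised against the other WT library too. Their summed normalized counts were 18058 in WT, 253278 in Hdac1-depleted cells, 17797 in the other WT and 16865 in the Cyp26-deficient library. The Hdac1-depleted library thus stood alone, 14.0-fold over its control, while the other 3 lay close together. Whether pigment cells entered the gate more often, for instance through their own fluorescence, was not tested.

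Pteridine genes were raised with few exceptions. The first enzyme, GTP cyclohydrolase 2 (gch2; ENSDARG00000013340, chromosome 12, 26612194 to 26618916), went from 2714 in WT to 75311 in Hdac1-depleted cells, against 2415 and 1766 in the other WT and the Cyp26-deficient library, 27.8-fold higher (log2 fold change 4.79, interval 4.74 to 4.85). The next enzyme, 6-pyruvoyltetrahydropterin synthase (PTS; ENSDARG00000045269, chromosome 12, 324152 to 326612), went from 1926 in WT to 53213 in Hdac1-depleted cells, against 1636 and 1181 in the other WT and the Cyp26-deficient library (log2 fold change 4.79, interval 4.73 to 4.85). For both genes the 3 reference libraries lay within a narrow band far below the Hdac1-depleted value. Sepiapterin reductase sprb was at 53.7, 721, 83.9 and 96.0 normalized counts in the WT, Hdac1-depleted, other WT and Cyp26-deficient libraries. Its paralog spra stayed within 2-fold, at 508, 548, 384 and 326. Pterin synthesis, recycling and use are described by a list of 12 genes chosen after their values were seen. Of these, 11 were raised, spra being the exception. The list includes the recycling genes, pah, the oxidases and MOCS1 given next. It shares gch2, PTS, sprb, xdh and aox3 with the xanthophore and iridophore list, so the counts overlap.

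The enzymes that recycle or consume the pterin cofactor behaved alike. The recycling genes pcbd1 and qdpra went from 154 to 872 and from 98.4 to 647, and phenylalanine hydroxylase pah, which uses tetrahydrobiopterin, from 121 to 1111. The molybdenum-cofactor oxidases followed. Xanthine dehydrogenase xdh, which also oxidizes pterins, went from 136 in WT to 3163 in Hdac1-depleted cells, against 67.9 and 72.6 in the other WT and the Cyp26-deficient library (log2 fold change 4.53, interval 4.31 to 4.77), and the aldehyde oxidase aox3 from 1164 in WT to 26989 in Hdac1-depleted cells, against 666 and 844 in the other WT and the Cyp26-deficient library (log2 fold change 4.53, interval 4.46 to 4.61). MOCS1, which starts synthesis of the molybdenum cofactor itself, went from 82.7 to 1219, and 1 gephyrin copy, GPHN (2 of 2), which acts at the end of that synthesis, from 35.6 to 442. In each of these genes the Hdac1-depleted library was higher than all 3 references. The other GTP cyclohydrolase, gch1, was raised by less, from 264 to 607.

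Purine synthesis feeds both pigments, GTP for pteridines and guanine for iridophore crystals. Of 18 genes compared, again a list chosen after values were seen, 12 were raised and none lowered (median 1.74). This list shares paics, gart, atic, impdh1b and pnp4a with the xanthophore and iridophore list, so the counts are not separate. Inosine monophosphate dehydrogenase impdh1b, at the entry to guanine nucleotides, went from 5314 in WT to 45007 in Hdac1-depleted cells, against 5249 and 6283 in the other WT and the Cyp26-deficient library (log2 fold change 3.08, interval 3.04 to 3.12). GMP synthetase gmps, the next step, was already abundant and went from 11952 to 39969. Along the ring-building route, ppat went from 552 to 2136, gart from 562 to 2166, pfas from 1556 to 10356, paics from 1702 to 9222 and atic from 3053 to 17174. Against the matched WT the paralogs were not alike. Impdh1a (11.6 to 12.4), impdh2 (1823 to 1981) and prps1b (562 to 592) stayed within 2-fold, while prps1a went from 10230.0 to 26310.0. Impdh2 depended on the control: the other WT library held 765, and its log2 fold change there was 1.37. The purine nucleoside phosphorylase pnp4a, an iridophore marker, was at 59.5, 668, 106 and 91.8 in the 4 libraries in the order above, so it too was highest after Hdac1 depletion.

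Transporters and receptors of pigment cells were among the genes with the largest folds. The sugar transporter family member slc2a15a (ENSDARG00000029894, chromosome 13, 28640899 to 28665688) went from 313 in WT to 13011 in Hdac1-depleted cells, against 550.3 and 346 in the other WT and the Cyp26-deficient library, 41.6-fold higher. Its relative slc2a11b, known in medaka for yellow pigment cells, was at 62.0, 2265, 81.4 and 115 in the 4 libraries in the same order, and the organic anion transporter family member slc22a7a at 162, 5105, 143 and 77.9. The receptors were raised as well. The Csf1 receptor csf1ra, which xanthophores need and macrophages also carry, was at 370.4, 2816, 1141 and 779.9, the endothelin receptor ednrb1a at 365, 3258, 418 and 411 and the iridophore receptor kinase ltk at 56.2, 177, 81.4 and 87.5. Csf1ra differed between the controls too. Its log2 fold change was 2.92 over the matched WT (7.60-fold) but 1.30 over the other WT.

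**Figure D2:**
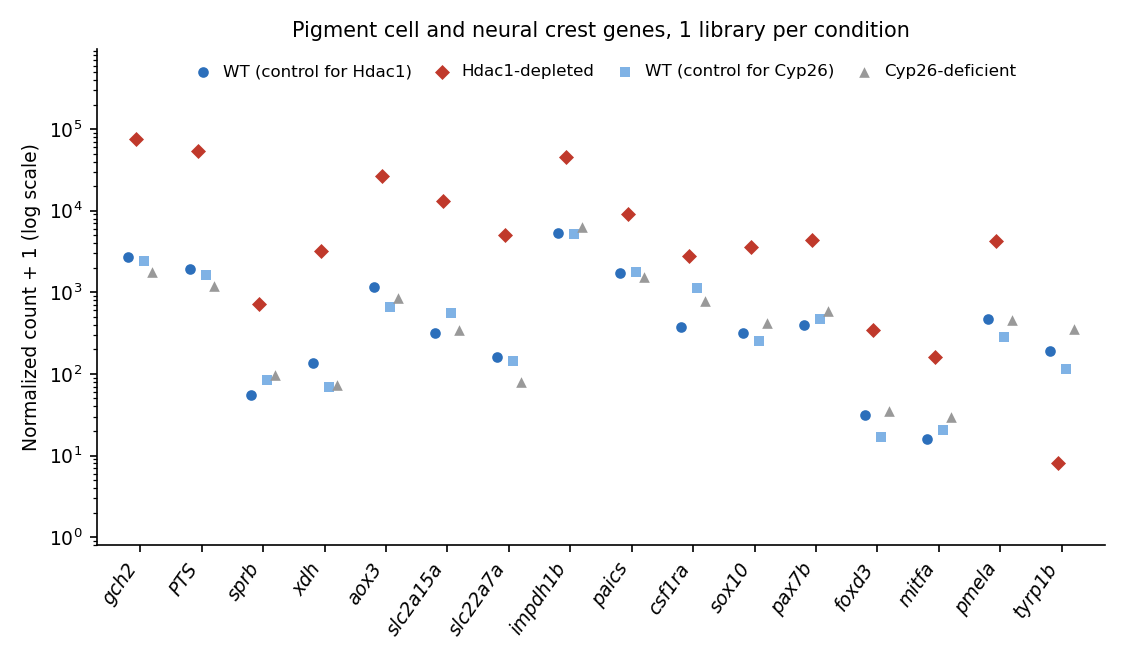
Normalized counts plus 1 (y axis, log scale) of pigment cell and neural crest genes in the 4 sorted libraries, 1 library per condition and no error bars. Hdac1-depleted cells (red diamonds) are highest for each gene shown except tyrp1b, where they are lowest at 7.10 normalized counts.

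Early neural crest genes were raised in part. Of 16 early neural crest genes, 7 were raised and none lowered, around a median of only 0.14. Sox10, required for non-skeletal crest fates (ENSDARG00000077467, chromosome 3, 2551636 to 2560717), went from 312 in WT to 3577 in Hdac1-depleted cells, against 255 and 420.4 in the other WT and the Cyp26-deficient library (log2 fold change 3.52, interval 3.37 to 3.68). The xanthophore factor pax7b was at 397, 4386, 474 and 583 in the 4 libraries and foxd3, an early crest specifier, at 30.6, 343, 16.04 and 34.1. Tfap2a went from 420.0 to 1723, while snai2 (904 to 1004), sox9b (398 to 335) and tfap2c (4442 to 3786) stayed within 2-fold. Pax3a, barely past the limit with a log2 fold change of 1.01, was lower than in the other WT library (-0.33).

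Melanophore genes split. Of 14, 9 were raised, 1 was lowered and the median was 1.91. Against the other WT library 7 were raised and 3 lowered, and 7 of the raised held against both. The master regulator mitfa went from 14.9 in WT to 162 in Hdac1-depleted cells, against 19.7 and 28.8 in the other WT and the Cyp26-deficient library (log2 fold change 3.36, interval 2.75 to 4.23), and the premelanosome protein gene pmela from 473 in WT to 4278 in Hdac1-depleted cells, against 279 and 450.2 in the other WT and the Cyp26-deficient library. Tyrosinase (tyr), which starts melanin synthesis, went from 108 to 919, and the transporter slc45a2 from 80.2 to 692. The tyrosinase-family gene dct stayed within 2-fold of the matched WT but not of the other WT (348, 191, 396 and 400.1 in the 4 libraries). Its relative tyrp1b was the member lowered against the matched WT, going from 191 in WT to 7.10 in Hdac1-depleted cells. The other WT and the Cyp26-deficient library held 115 and 355. Against the matched WT, tyrp1b was 26.9-fold lower (log2 fold change -4.57, interval -5.98 to -3.75). Kita, the receptor kinase of migrating melanophores, was at 452, 528, 327 and 324 and the exchanger slc24a5 at 478, 519, 574 and 523, both within 2-fold.

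Pigment granules are lysosome-related organelles, built by the BLOC, AP-3 and HOPS complexes, moved by myosin Va with melanophilin and Rab27, and acidified by the vacuolar proton pump. Of 31 genes of this machinery, 22 were raised and none lowered (median 1.55; 17 against both WT libraries). The list was chosen after values were seen and shares mlpha with the melanophore list. RAB27B went from 103 in WT to 3301 in Hdac1-depleted cells, against 149 and 163 in the other WT and the Cyp26-deficient library, 32.2-fold higher. Melanophilin mlphb went from 41.3 to 582, rab38a from 50.4 to 712, myosin myo5aa from 478 to 3479 and the BLOC-2 subunit gene hps5 from 324 to 1891. The paralogs rab27a (876 to 1210.4) and myo5ab (159 to 274) did not pass the limit. Of 22 proton pump genes, 11 were raised, 6 of them against both WT libraries, with atp6v1ab at 339.8, 2403, 1067 and 637 in the 4 libraries. The other WT library was itself higher than the matched one for these pump genes, by a median of 0.45 on the log2 scale.

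By the rule for the largest well-measured gains, 15 raised genes were picked, of which 7 are given above (gch2, PTS, aox3, slc2a15a, slc2a11b, slc22a7a and RAB27B) and 3 are set apart below. PLIN4 (ENSDARG00000076844, chromosome 16, 31025785 to 31064611), which encodes a perilipin of lipid droplets, went from 33.1 in WT to 3485 in Hdac1-depleted cells, against 37.0 and 33.1 in the other WT and the Cyp26-deficient library, 105-fold higher. The retinoid isomerase homolog rpe65a was at 45.5, 1607, 59.2 and 38.4 in the 4 libraries, and SI, named for sucrase-isomaltase, at 35.6, 1065, 9.87 and 67.2. The dopamine receptor gene drd2a and the syntrophin sntg2 were nearly absent in WT, with counts of 0 and 86 for drd2a and of 1 and 127 for sntg2 in the WT and Hdac1-depleted libraries, at least 30.8-fold and 45.4-fold higher against a floor of 3 counts in the WT library. In the other WT library sntg2 was at 28.4 normalized counts, so its log2 fold change there was 1.95.

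The gene rows of cybrd1, CENPQ and wee1 also met that rule but are not supported by their exon rows. The table gives counts per exon as well as per gene, and exon counts summed to a median of 99.9% of the gene count. For wee1, with gene counts of 28 and 1142 in the WT and Hdac1-depleted libraries, the exons of the Hdac1-depleted library summed to only 23.0. For cybrd1 and CENPQ they summed to 0.524 and 0, while the gene counts were 0 and 318 for cybrd1 and 0 and 140 for CENPQ in the WT and Hdac1-depleted libraries. All 3 genes also had high gene rows in the other WT library, where wee1 was higher than after Hdac1 depletion (-0.48). In all, 122 of the genes compared had exon counts under 50% of the gene count, 19 of them raised and 19 lowered, and leaving them out gave 2462 raised and 2528 lowered genes.

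The opposite pattern was seen in the endothelium. Nkx2.5+ pharyngeal progenitors give rise to arch artery endothelium, and the endocardium lines the heart. Of 32 endothelial and arch artery genes, 28 were lowered and 1 raised, with a median of -1.76. Of the lowered genes, 25 were also lowered against the other WT library. Summed normalized counts were 58185 in WT, 15537 in Hdac1-depleted cells, and 67020.0 and 49387 in the other WT and the Cyp26-deficient library.

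The regulators at the top of the lineage had the largest differences in the list. Etv2, the ETS factor that specifies endothelium (ENSDARG00000053868, chromosome 16, 44778273 to 44783318), went from 3870.1 in WT to 204 in Hdac1-depleted cells, against 4242 and 2163 in the other WT and the Cyp26-deficient library, 19.0-fold lower (log2 fold change -4.24, interval -4.44 to -4.05). Lmo2 (ENSDARG00000095019, chromosome 18, 36726166 to 36733954) and tal1, partners in blood and vessel specification, were at 2800.3, 70.1, 3516 and 1377 and at 1647, 114, 1861 and 1103 in the WT, Hdac1-depleted, other WT and Cyp26-deficient libraries. Hdac1-depleted cells were lowest for all 3 genes, and the Cyp26-deficient library lay between them and the controls. Among the later ETS factors, fli1a went from 2318 to 587, fli1b from 1914 to 425 and erg from 156 to 33.7. The Sox factors sox7 (2778 to 678) and sox18 (310.0 to 90.5) were lowered less than etv2.

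Genes of receptors and junction proteins were lowered as well. VE-cadherin cdh5 (ENSDARG00000075549, chromosome 7, 45433470 to 45486203), which holds endothelial junctions together, went from 5187 in WT to 831 in Hdac1-depleted cells, against 7001 and 4078 in the other WT and the Cyp26-deficient library (log2 fold change -2.64, interval -2.74 to -2.54). The VEGF receptors kdrl and kdr went from 4465 to 1189 and from 2462 to 902, and flt4, the receptor of lymphatic and venous growth, from 921 to 119. The angiopoietin-receptor relatives tie1 and tie2 were also lowered, from 2289 to 511 and from 221 to 71.9, as was the tight-junction gene cldn5b, from 814 to 251. The Notch ligand dll4 (1254, 943, 1035 and 987 in the 4 libraries) and the phosphatase dusp5 (3724, 2809, 4429.8 and 3799) stayed within 2-fold. The low nos2a (23.1, 24.0, 6.17 and 69.3) was within 2-fold of the matched WT but higher than in the other WT. The raised gene, plvapa (si:dkey-208k22.3 in the file), was at 12.4, 39.9, 32.1 and 18.1, hardly above the other WT.

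Endocardial and valve genes were lowered in part. Of 10 compared, 5 were lowered and none raised (median -0.85), and all 5 were lowered against the other WT library as well. Klf2a, a flow-responsive factor, went from 747 in WT to 104 in Hdac1-depleted cells, against 554 and 345 in the other WT and the Cyp26-deficient library (log2 fold change -2.84, interval -3.14 to -2.57), and has2, which makes the hyaluronan of the cardiac jelly, from 699 in WT to 153 in Hdac1-depleted cells, against 932 and 752 in the other WT and the Cyp26-deficient library. The receptor notch1b went from 3086 to 1288 and the endocardial factor nfatc1 from 4132 to 1855. Heg (1086 to 887) and klf2b (1211 to 855) stayed within 2-fold.

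White blood cell genes were lowered, some to near 0. Of 15 macrophage and neutrophil genes, 11 were lowered and 1, csf1ra, raised (median -1.88). Lysozyme lyz (ENSDARG00000057789, chromosome 24, 24643811 to 24646748) went from 14238 in WT to 98.5 in Hdac1-depleted cells, against 27646 and 20665 in the other WT and the Cyp26-deficient library, 145-fold lower (log2 fold change -7.16, interval -7.46 to -6.91). Myeloperoxidase mpx was at 2982, 125, 6793 and 5994 and the neutrophil protease gene npsn at 2407, 47.9, 5001 and 4990.0 in the 4 libraries. The chemokine receptor cxcr3.2 had counts of 97 and 0 in the WT and Hdac1-depleted libraries, at least 30.1-fold lower against the floor. The myeloid factor spi1 and the pan-leukocyte phosphatase ptprc went from 1575 to 382 and from 332 to 11.5. Beside lyz, npsn, mpx, cxcr3.2, lmo2 and lens genes, the 15 lowered genes picked by the rule held ch25hl2 (217, 0, 360.3 and 606), named for a cholesterol hydroxylase, the transporter genes abcb9 (685, 11.5, 1016 and 1301) and slc2a6 (59.5, 0, 112 and 109), the actin regulator VASP (2 of 2) (219, 3.55, 628 and 340.4) and the disulfide isomerase pdia2 (219, 4.44, 339 and 297). All 5 were lower than in each of the 3 other sorted libraries.

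The 2 WT controls differed here, by a median of 1.55 on the log2 scale, the other WT library being the higher one. Against it the median of the list was -3.51. Every gene lowered against the matched WT was lowered against both. A wider list of 33 leukocyte signalling and granule genes, chosen after values were seen, had 21 lowered and none raised. Srgn, the granule proteoglycan, went from 397 to 16.9, the phosphatase INPP5D from 255 to 22.2 and the neutrophil oxidase subunit ncf1 from 434 to 69.2. All 11 compared rows that the file names as copies of mfap4, a macrophage gene in zebrafish, were lowered, though near-identical copies can trade reads. The macrophage factor irf8 (62.0, 61.2, 95.01 and 189.9) and runx1 (59.5, 97.6, 92.5 and 84.3), which acts in blood stem cells, were within 2-fold.

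Red blood cell genes were lower against the matched control and less so against the other. Of 16 compared, 7 were lowered, 3 of them against both WT libraries, and 1 was raised. The anion exchanger slc4a1a was at 218, 28.4, 194 and 194 in the 4 libraries, and the embryonic globin hbae1 at 567, 101, 269 and 424. The erythroid factor gata1a was at 131, 63.0, 169 and 132, lower than in both controls.

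**Figure D3:**
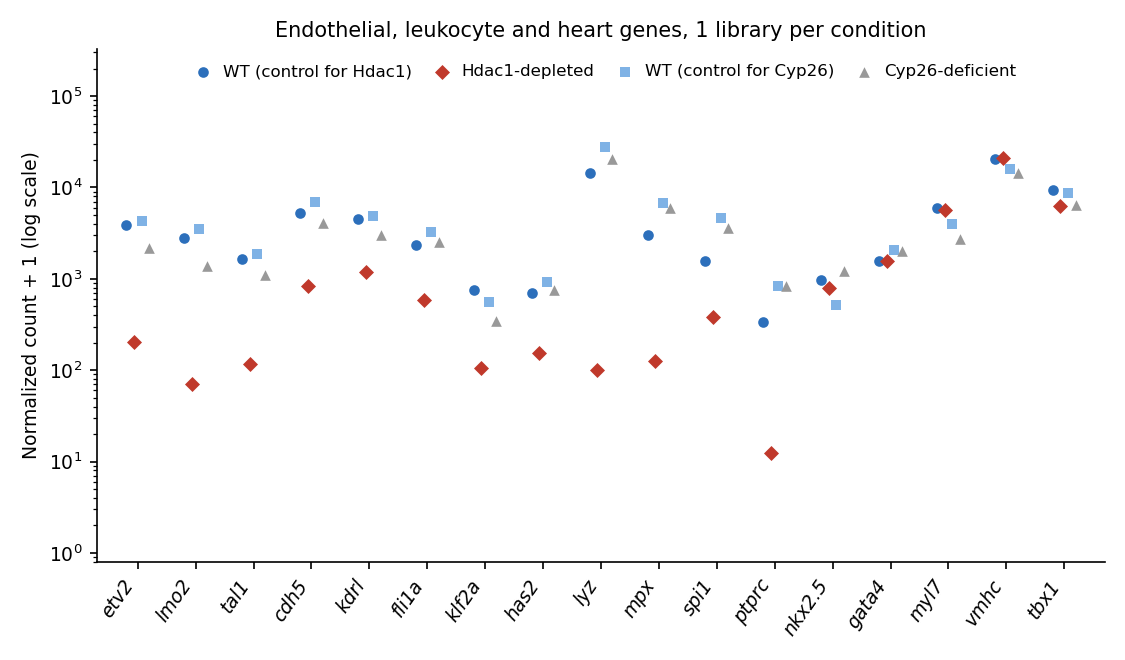
Normalized counts plus 1 (y axis, log scale) of endothelial, leukocyte and heart genes in the 4 sorted libraries, 1 library per condition and no error bars. Hdac1-depleted cells (red diamonds) are lowest from etv2 to ptprc, and lie among or next to the other libraries from nkx2.5 to tbx1.

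Heart muscle genes hardly differed from the matched WT. Of 22 cardiomyocyte genes, 2 were lowered and 1 raised (median -0.16). Against the other WT library the median was 0.40, with 3 raised and 1 lowered. Their sums were 150622 in WT and 144118 in Hdac1-depleted cells, against 124194 and 148558 in the other WT and Cyp26-deficient libraries. Ventricular myosin vmhc was at 20519, 21144, 15860.0 and 14414 in the 4 libraries (log2 fold change 0.04, interval 0.02 to 0.07 against the matched WT). The cardiac troponins tnnt2a (4260.4 to 4423) and tnni1b (2439 to 2462) were as close. Atrial myosin myh6 was 1 of the 2 lowered genes, and the only one of them also lowered against the other WT. It went from 3639 in WT to 1446 in Hdac1-depleted cells (log2 fold change -1.33, interval -1.41 to -1.25). The other WT and the Cyp26-deficient library held 5068 and 3552. The natriuretic peptide gene nppb (BX323876.3 in the file) was raised, from 100.04 to 302, and nppa, at 477 to 333, was not past the limit.

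No cardiac transcription factor of the 18 compared passed 2-fold against the matched WT (median 0.06). Against the other WT 3 were raised and 2 lowered, beside 15.6% and 14.9% over all genes there. Gata4 was at 1546, 1551, 2073 and 2038 in the 4 libraries, tbx20 at 645, 635, 542 and 573 and hand2 at 246, 299.9, 109 and 268. The other WT library was the outlying one for hand2, with a log2 fold change of 1.46 against it. The atrial regulator nr2f1a went from 389 to 258, and tbx2b, a chamber-boundary repressor, from 346 to 595.

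SHF and pharyngeal mesoderm genes were mostly within 2-fold, with 4 of 18 lowered and 1 raised (median -0.28), beside 12.7% and 12.4% over all genes. Ltbp3, a TGF-beta binding protein that marks the SHF, went from 1045 in WT to 500.5 in Hdac1-depleted cells, against 633 and 820.5 in the other WT and the Cyp26-deficient library (log2 fold change -1.06, interval -1.21 to -0.92). Against the other WT its log2 fold change was -0.34, within 2-fold, so the call rests on the matched control. Mef2cb was at 1092, 1125, 1572 and 928 and tbx1, the pharyngeal T-box factor, at 9415, 6226, 8692 and 6488, both within 2-fold. The ligand fgf10a was raised against both controls, at 207, 477, 172 and 258 in the 4 libraries, and lhx2a, a factor of the head muscle mesoderm, was lowered, with counts of 38 and 2 in the WT and Hdac1-depleted libraries. Isl1 (155, 133, 173 and 202) and sema3c (295, 533, 455 and 554) did not pass the limit.

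OFT smooth muscle genes leaned lower. Of 11 compared, 3 were lowered, all 3 against both WT libraries, and none was raised (median -0.78), beside 12.7% lowered over all genes. Smooth muscle myosin myh11a went from 1073 in WT to 162 in Hdac1-depleted cells, against 2151 and 2178 in the other WT and the Cyp26-deficient library (log2 fold change -2.72, interval -2.96 to -2.51), and the myosin kinase mylka from 72.8 in WT to 3.55 in Hdac1-depleted cells, against 65.4 and 65.1 in the other WT and the Cyp26-deficient library. The matrix gene fbln1 was at 499, 82.5, 197 and 482. Elnb, an elastin of the bulbus arteriosus, had counts of 27 and 6 in WT and Hdac1-depleted cells and was too low to be compared. Acta2 (122 to 65.7), tagln (48.8 to 48.8) and pdgfrb (2179 to 1266) were within 2-fold.

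**Figure D4:**
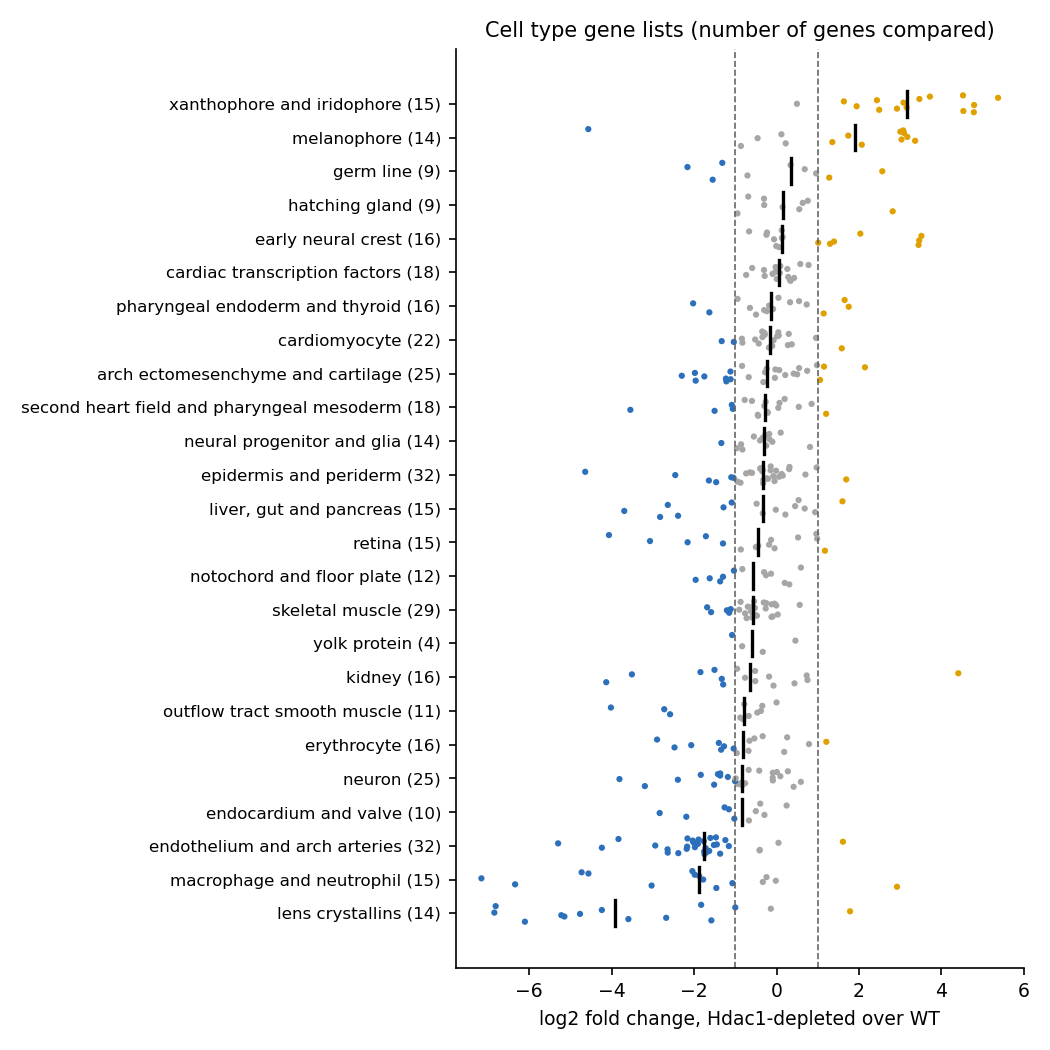
Log2 fold change of Hdac1-depleted over WT sorted cells (x axis) for each compared gene of the cell type lists (y axis, number of genes in parentheses), with a black bar at the list's median and dashed lines at 2-fold. Genes raised (yellow) gather in the pigment lists, genes lowered (blue) in the endothelial, leukocyte and lens lists, and the heart lists are mostly grey, within 2-fold. The count of lowered lens genes was largely fixed by the filter, and the lens median against the other WT library was 0.24.

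Pharyngeal arch genes moved both ways. Among 25 ectomesenchyme and cartilage genes, 8 were lowered and 3 raised (median -0.24), beside 12.7% and 12.4% over all genes. The endothelin ligand edn1, which patterns the ventral arches, went from 707 in WT to 143 in Hdac1-depleted cells, against 603 and 296 in the other WT and the Cyp26-deficient library (log2 fold change -2.30, interval -2.56 to -2.06). Arch patterning factors were lowered too, dlx6a from 32.2 to 8.87, dlx3b from 222 to 94.1, barx1 from 52.9 to 22.2 and gsc from 39.7 to 17.7, each against both controls. The osteoblast and cartilage factor runx2b was raised, at 168, 746, 241 and 169 in the 4 libraries, and twist1a, at 623, 1233, 756 and 697, lay just under the limit. Col2a1a, the cartilage and notochord collagen, went from 6315 to 1619.5, but the other WT library held 1248.

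In pharyngeal endoderm and thyroid, 3 of 16 genes were raised and 2 lowered, beside 12.4% and 12.7% over all genes. The pouch factor pax1b went from 14.1 to 49.7, while its relative pax9 went from 35.6 to 7.99 and foxa1 from 117 to 37.3. Ripply3, an endodermal T-box corepressor, was at 13.2, 16.9, 9.87 and 139 in the WT, Hdac1-depleted, other WT and Cyp26-deficient libraries. The interval of its log2 fold change, -0.69 to 1.41, covered both no change and a 2-fold rise.

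Epidermal genes differed more between the 2 controls than with Hdac1 depletion. Of 32 compared, 6 were lowered and 1 raised against the matched WT (median -0.32), while the other WT library was lower than the matched one (median log2 ratio -1.30). Keratin krt4 was at 15956, 14434, 5354 and 3484 in the 4 libraries. E-cadherin cdh1, which pigment cells and epithelia share, was raised against both, at 1550.2, 5009, 1455 and 1137. Skeletal muscle genes also depended on the control, with 5 of 29 lowered against the matched WT and a median of -0.57 that became 0.24 against the other. The fast myosin myhz1.1 was at 11133, 3704, 6788 and 11781.

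Neuronal genes were lower against both controls. Of 25 compared, 10 were lowered and none raised (median -0.84; -1.39 against the other WT). Among 26 proneural and neuronal transcription factors, a list chosen after values were seen, 17 were lowered and 2 raised. This list shares neurog1, neurod1 and ascl1a with the neuronal list. Neurog1, which starts sensory neuron formation, went from 62.8 in WT to 3.55 in Hdac1-depleted cells, against 34.5 and 68.3 in the other WT and the Cyp26-deficient library (log2 fold change -3.81, interval -6.06 to -2.73), and neurod4 from 252 in WT to 24.0 in Hdac1-depleted cells, against 373 and 243 in the other WT and the Cyp26-deficient library. The pan-neuronal RNA-binding gene elavl3 was within 2-fold of the matched WT but not of the other WT, at 7389.7, 4362, 10992 and 6334. Of 14 neural progenitor and glial genes, 1 was lowered and none raised (median -0.31), but against the other WT 5 were lowered and 1 raised (median -0.85). Sox2 went from 208 to 171 and nes from 1146 to 965.

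Retina, lens and notochord markers depended on the control to differing degrees. Lens genes were lowered in 12 of 14 cases (median -3.92), but against the other WT library the median was 0.24. Of 24 lens genes in the file only these 14 averaged 10 or more normalized counts, many of them through the matched WT alone, so that the count of lowered genes was largely fixed by that filter. The crystallin crygm2d8 had 114 normalized counts in the matched WT and 0 in both the Hdac1-depleted and the other WT library. The lens genes among the 15 leading lowered genes (crygm2d8, lim2.4, cryba1b, crybb1 and crygm2d13) had 0, 4.94, 17.3, 2.47 and 0 normalized counts in the other WT, so crybb1 was higher after Hdac1 depletion than in that library (1.51) while lim2.4 and cryba1b were lower than in both. In the notochord list 5 of 12 were lowered against the matched WT and none of them against both, with col9a1 at 2322, 943, 95.01 and 269.9. Retinal factors were lowered against both in 5 of 15 cases, among them rx1, at 158, 34.6, 162 and 169.6.

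By function, p53 pathway genes were raised more often than lowered. Of 29 genes, 10 were raised and 1 lowered, 6 of the raised against both WT libraries (median 0.29). The feedback inhibitor of the pathway, mdm2, went from 1275 in WT to 5888 in Hdac1-depleted cells, against 1528 and 3542 in the other WT and the Cyp26-deficient library (log2 fold change 2.21, interval 2.13 to 2.29), and the target ccng1 from 8236 in WT to 37151 in Hdac1-depleted cells, against 6226 and 41197 in the other WT and the Cyp26-deficient library. The cell cycle inhibitor cdkn1a was at 417, 1403, 209 and 686 in the 4 libraries and sesn3 at 249.7, 836, 280.1 and 735. Mdm2, ccng1 and cdkn1a were also higher in the Cyp26-deficient library than in its WT control. The Cyp26-deficient embryos also received MOs, a p53 MO among them, and whether injection itself has a part was not tested. In whole crg embryos, where Hdac1 was lost by mutation, 2 of 26 p53 pathway genes were raised and 1 lowered (median -0.01). Cdkn1a had a log2 fold change of 0.47 there. Those embryos also differ from the sorted cells in tissue and age. Sesn1 was raised against the matched WT, from 189 to 941, but the other WT held 663. Plk2b was the lowered one, from 585 to 244.

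Of the histone deacetylases, 2 of 14 were raised and 2 lowered, near the 12.4% and 12.7% over all genes. Besides hdac1, the class I member hdac8 was raised, at 322, 733, 280.1 and 445 in the 4 libraries, while hdac3 stayed within 2-fold, at 362, 327, 312 and 376. Hdac10 was lowered, from 184 to 76.3, as was hdac9b, from 733 to 359. Only 1 of these 2 lowered genes was also lowered against the other WT library, while both raised genes held against it. Among 34 genes of the complexes that Hdac1 works in (NuRD, Sin3 and CoREST), the CoREST scaffolds rcor1 (953, 2023, 907 and 1362) and rcor3 (20.7, 79.9, 7.40 and 29.9) were raised and 1 gene was lowered, fewer than the share over all genes. None of the 21 acetyltransferase and bromodomain genes, which act against deacetylases or read their substrate, passed the limit.

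Cell cycle genes were mostly within 2-fold. Among 44 DNA replication and mitosis genes the median was -0.36, with 2 lowered and none raised. The helicase subunit mcm6 went from 2024 to 990.3 and cyclin ccne2 from 408 to 203, and the replication clamp pcna stayed within 2-fold, at 5603, 4112, 4315 and 6380.2. Of 23 cell cycle inhibitor, E2F and Rb genes, 6 were raised, wee1 (set apart above) among them, and e2f7 was lowered. The CDK inhibitor cdkn1ba went from 422 to 862 and the Rb relative RBL2 from 193 to 492.

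**Figure D5:**
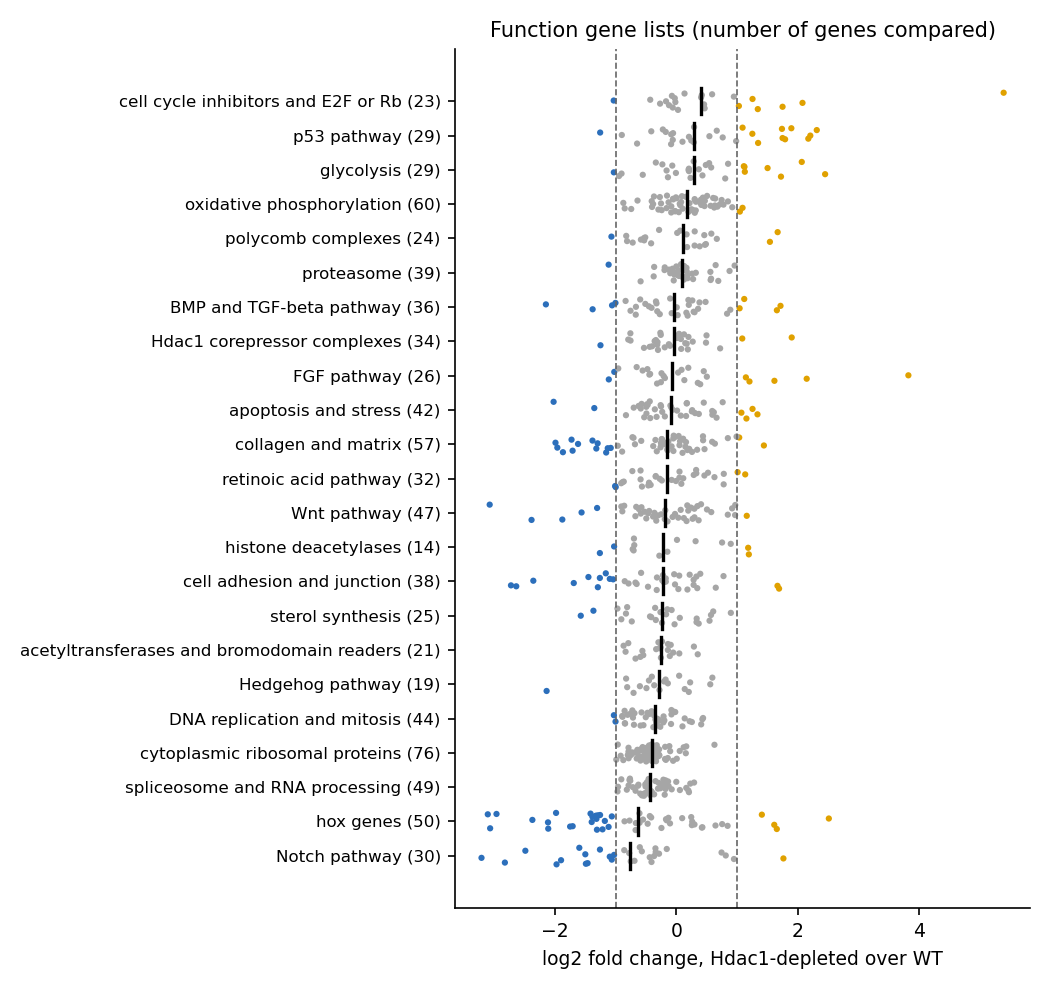
Log2 fold change of Hdac1-depleted over WT sorted cells (x axis) for each compared gene of the function lists (y axis, number of genes in parentheses), with a black bar at the list's median and dashed lines at 2-fold. Raised genes (yellow) are most frequent in the p53 list, lowered genes (blue) in the hox and Notch lists, and ribosomal and spliceosome genes sit in a tight grey band just below 0.

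Hox genes, which give position along the body axis, were lowered in 21 of 50 cases and raised in 4 (median -0.64), with 11 lowered against both controls. The most abundant of these, hoxa3a, was at 1203, 554, 1197 and 1654 in the 4 libraries, and hoxa4a at 227, 66.6, 338 and 444. Hoxb1a, the hindbrain gene that responds to retinoic acid (RA), was raised, at 117, 359, 65.4 and 348, and was as high in the Cyp26-deficient library. Many hox genes had fewer than 100 normalized counts, where counting error is wide. Over all genes, 26.6% of those with a mean of 10 to 30 and 17.3% of those with 30 to 100 were lowered. Against the other WT, 14 hox genes were lowered and 8 raised, beside 14.9% and 15.6% over all genes there.

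Of 32 RA pathway genes, 2 were raised and 2 lowered, both shares under the 12.4% and 12.7% over all genes. Against the other WT 4 were raised and 4 lowered, under the 15.6% and 14.9% over all genes there. The retinol dehydrogenase rdh10a, which acts before the RA-making step, was at 1340.2, 2942, 975 and 2108 in the 4 libraries, and the RA-making enzyme aldh1a2 at 3372, 1684, 3038 and 1862. Aldh1a2 lay on the limit itself, and the interval of its log2 fold change ran from -1.08 to -0.92. The RA-degrading enzyme gene cyp26a1, itself switched on by RA, was at 118, 125, 144 and 1863. Its level in Hdac1-depleted cells lay between those of the WT libraries, far under the Cyp26-deficient one.

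Notch pathway genes were lowered in 13 of 30 cases, 11 of them against both controls, and her3 was raised against the matched WT only (median -0.77). The ligands dla (956, 242, 1373 and 882), dlb (2585, 918, 6168 and 3759.9) and dld (422, 58.6, 606 and 524), used in neurogenesis, were lowered against both. BMP and TGF-beta genes showed no lean, with 4 raised and 4 lowered of 36 (median -0.04), and of 47 Wnt genes 1 was raised and 5 were lowered, both shares at or under those over all genes. In the FGF list 5 of 26 were raised and 2 lowered, beside 12.4% and 12.7% over all genes. Fgf10a and fgf3 (36.4 to 81.6) were among the raised, and fgfr4 was lowered, from 9549 to 4695. Fgf8b, with counts of 1 and 28 in WT and Hdac1-depleted cells, was not higher than in the other WT (-0.30).

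Matrix and adhesion genes depended on the control. Of 57 collagen and matrix genes, 12 were lowered, 5 against both WT libraries, and 2 raised. Against the other WT 8 were raised and 7 lowered, both under the 15.6% and 14.9% over all genes there. The fibrillar collagen col1a1a was at 5605, 2244, 4907 and 2298 in the 4 libraries, and the vascular laminin lama4 at 3134, 1201, 3524 and 2536. In the adhesion list 10 of 38 were lowered and 2 raised, and against the other WT 7 were raised and 8 lowered, beside the same shares. The raised genes were cdh1 and cdh6, a cadherin of neural crest, at 647, 2053, 866 and 778. Glycolysis genes were raised in 7 of 29 cases, 5 against both, beside 12.4% raised over all genes. Among them were ldhba (1052, 2981, 638 and 852) and pgam1a (1654, 3601, 1529 and 900.5).

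Ribosomal and spliceosome genes stayed within 2-fold. None of 76 ribosomal protein genes passed the limit (median -0.41), and against the other WT their median was 0.22. Spliceosome genes had a median of -0.43, and -0.19 against the other WT. The 5 largest losses in normalized counts were of abundant genes within 2-fold: the elongation factors eef2b and eef1a1l1, the chromatin protein hmga1a, the chaperone hspa8 and the stem cell factor sall4. Sall4 was at 42766, 22181, 38348 and 44243 in the 4 libraries and hmga1a at 99675, 56037, 96547 and 99070.0. The largest gain was in si:dkey-153m14.1, at 585300.0, 1137239, 676612 and 585212, which took 6.89% of all gene counts in the Hdac1-depleted library and 3.66% in its control.

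The whole-embryo pair gives a second view of Hdac1 loss, in another tissue, at 48 hpf and through a mutation. Of 17015 genes compared in both tables, 5.30% were more than 2-fold higher and 5.17% lower in crg mutants. Of 2024 raised genes of the sorted cells that could be compared there, 228 (11.3%) were also higher in crg mutants and 105 (5.19%) lower. Of 1897 lowered genes, 275 (14.5%) were also lower and 67 (3.53%) higher. The median log2 fold change in crg mutants was 0.21 for the raised and -0.23 for the lowered genes, beside 0.03 for all genes. Tissue, age and the way Hdac1 was lost cannot be told apart in this comparison.

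The pigment genes did not follow. Of the 15 xanthophore and iridophore genes, none was higher and 2 were lower in crg mutants (median -0.21), with gch2 at 5366 normalized counts in the WT and 4574 in the crg embryos. Sox10 had a log2 fold change of -0.40 there and pax7b of 0.45. Melanophore genes were lower, 5 of 14 past 2-fold (median -0.91), tyrp1b going from 2338 to 670.3. Endothelial genes had a median of -0.32 in crg mutants, with none of 31 lowered. Neuronal genes, lower in sorted cells, had a median of 0.16 in crg mutants, with none of 25 past 2-fold. Of 25 proneural and neuronal transcription factors, 2 were raised and 2 lowered in crg mutants (median 0.25). Notch pathway genes, also lower in sorted cells, leaned the other way, with 4 of 28 raised and none lowered in crg mutants (median 0.53). Heart genes, near 0 against the matched WT in sorted cells, were lower in whole crg embryos. There 8 of 21 were past 2-fold, with myl7 going from 725 to 191.

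Of the 1568 genes raised and 1813 lowered against both sorted WT libraries, 141 were also raised and 195 also lowered in crg mutants. The 1568 and 1813 include genes not screened for enough counts in the embryos, so exact shares cannot be read from these counts. Over all genes compared in both tables, 5.30% were raised and 5.17% lowered in crg mutants. The genes named here from the 141 and 195 were chosen after their values were seen. Lyz and mpx were among the lowered, going from 1044 to 317 and from 561 to 153 in the embryos, and they were the only lowered genes of 14 macrophage and neutrophil genes compared there. Of 31 leukocyte signalling and granule genes, 3 were raised and 2 lowered in crg mutants. Smooth muscle genes were too, myh11a from 67.7 to 15.07 and mylka from 19.2 to 1.77, as were the endocardial genes klf2a, from 345 to 101, and has2, from 99.2 to 40.8. Among the raised, hoxb1a went from 28.2 to 125, rcor3 from 103 to 234, gephyrin GPHN (2 of 2) from 82.3 to 183, and prdx6, an antioxidant enzyme, from 724 to 1514.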

How the data were processed

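RNA from fluorescence-sorted nkx2.5:ZsYellow+ cells was purified and amplified with a single-cell kit by the authors and sequenced as paired-end reads, 1 library per condition. Per the labels, the cells were collected at 28 hpf, while a legend of the study gives a later age for sorted cells. The authors aligned the reads with Strand-NGS to Zv9 (danRer7) and deposited expected counts per gene and exon, without normalization. The submitters' processing notes also name DESeq. The strand setting for the sorted libraries is not given in the sources used here, so reads of overlapping genes cannot be told apart. The deposited table of whole embryos (single-end stranded reads) holds the same kind of estimated counts inside a text column of mixed content (unit: other), and 2 per-sample columns of it that could not be matched to a sample were not used. It carries no gene identifiers, so 31151 genes were matched by symbol and position.

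Expected counts were rounded, and library size was corrected by the median-of-ratios method (DESeq2 1.42.0, R 4.3.3; Python 3.11.15, numpy 2.4.6, pandas 2.3.3, scipy 1.17.1, matplotlib 3.10.9). A pseudocount of 1 was used on the log2 scale. With 1 library per side no test was run. Differences past 2-fold were counted, with exact (Clopper-Pearson) 95% counting intervals, and a fold against 3 counts or fewer is a bound at 3 counts in that library. Totals ran from 13133598 to 19338815 gene counts per sorted library. The gene lists numbered 48 (1585 entries, 77 of which were not found), with 6 more added after values were seen. The genes and lists were chosen with earlier results of these data known. Named genes are those the study names, the 15 raised and 15 lowered genes with a full symbol whose interval lay farthest from no change, the 5 largest gains and losses in normalized counts, and list members. Identifiers were matched to current symbols for 20756 genes through a RefSeq-based name table. Alternatives were size factors by TMM (edgeR 4.0.16), total counts or the compared libraries alone, pseudocounts of 0.1 and 10, other filters and limits, the other WT control, and the most abundant exon in place of the gene. The fold and interval calculation was tested on simulated data. A few results are not reported here because their items are withheld.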

Additional observations from a re-analysis of the deposited data

Results flagged for a closer look

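Pigment cell lists differed between the sorted cells and whole embryos. For melanophore genes the median difference on the log2 scale was 1.91 in the sorted cells at 28 hpf but -0.91 in crg mutants at 48 hpf. The xanthophore and iridophore list had a median of 3.16 in sorted cells and of -0.21 in crg mutants. Lists added after values were seen were not screened for this flag. Among them, the proneural and neuronal transcription factors also had medians of opposite sign, -1.67 in sorted cells and 0.25 in crg mutants. Each value rests on 1 library per condition, so the difference between the experiments was not tested, and tissue, age and the way Hdac1 was lost cannot be told apart.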

How the results depend on the processing

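The counts of raised and lowered genes depended on the limit and filter. In place of 2481 genes raised more than 2-fold and 2547 genes lowered more than 2-fold, no filter gave 3788 and 4617, a minimum mean of 50 gave 1532 and 1223, a limit of 4-fold 565 and 780, and an interval wholly past 2-fold 1304 and 1182. Requiring a difference from both WT controls, chosen after seeing the data, gave 1568 raised and 1813 lowered genes. At 4-fold, 12 endothelial genes in place of 28 and 6 macrophage and neutrophil genes in place of 11 were lowered, and the share of lowered genes also lowered in crg mutants was 23.2% in place of 14.5%. The count of 14 raised xanthophore and iridophore genes was 12 at 4-fold and 14 under the other alternatives. Against the other WT control, wee1 was lower (log2 fold change -0.48), crybb1 higher (1.51), and crygm2d8 and crygm2d13 were at 0, and CENPQ was at 0 in its most abundant exon. Of 108 counts over the gene lists, 51 moved by more than 1.5 times with the other WT control, 67 at 4-fold, 41 with the interval and 31 with a minimum mean of 50, against 2 with TMM, 6 with total counts and 0 without genes lacking exon counts. Among 51 log2 fold changes of genes named by the study or by rule, 33 left their interval and 4 reversed with the other WT control. With the most abundant exon 25 left it and 1 reversed. No paired analysis was possible because each condition has 1 library, and the same limit left no replicate to leave out.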

Other observations

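Several minor cell types and gene families of the sorted cells are given here as values. Hatching gland proteases set the other WT library apart from the rest: he1a was at 1011, 1572, 3.70 and 1243 normalized counts in the WT, Hdac1-depleted, other WT and Cyp26-deficient libraries, he1b at 218, 370.0, 2.47 and 357 and ctsl1b at 289, 320.4, 0 and 254. All 3 genes were close to 0 in the other WT and within 2-fold between Hdac1-depleted and matched WT cells. Among 16 kidney genes, 6 were lowered and 1 raised, beside 12.7% and 12.4% over all genes. The podocyte factor wt1a was at 150.5, 52.4, 199 and 124, lower than in both controls. The raised gene was the sodium-phosphate transporter slc20a1a, at 28.1, 619, 17.3 and 8.54, with a log2 fold change of 4.41 over WT and the other 3 libraries at or under 28.1. Of 15 liver, gut and pancreas genes, 6 were lowered, 5 of them against both WT libraries, and 1 was raised (median -0.33). The raised gene was the iron carrier tfa, at 1185, 3593, 1085 and 331. The carboxypeptidase cpa5 was among the lowered, at 173, 12.4, 348 and 312.

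Protocadherin genes, which encode neuronal adhesion proteins, were lowered in 21 of 53 cases and raised in 7, with a median log2 fold change of -0.75, though clustered protocadherins share sequence and can trade reads. Of 42 rows that the file names as copies of the signal recognition particle RNA, 20 were raised and none lowered (median 0.95). These copies are near-identical, so single copies are uncertain. Rab genes were raised in 18 of 77 cases, above the 12.4% over all genes, and lowered in 7, below the 12.7%. Solute carrier genes were raised in 50 and lowered in 62 of 360 cases, both somewhat above those shares. These families were chosen after their values were seen.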
